A study of Drosophila pseudoobscura and Drosophila ananassae and Drosophila yakuba with 13 samples.

Results

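Dref, mus209 and plu are genes of DNA replication, and their expression was compared between testis and ovary in D. ananassae and D. pseudoobscura. The genes were taken by symbol from the authors' comparison table of each species. The D. ananassae table lists all 3 symbols among 11576 genes, and the D. pseudoobscura table lists Dref alone among 11946 genes, which makes 4 rows of 23522. No copy of mus209 or plu carries that symbol in the D. pseudoobscura table, so neither gene was analysed here in that species. A RefSeq gene table of D. pseudoobscura (assembly UCI_Dpse_MV25) names plu and 2 PCNA genes, PCNA and PCNA2, but gives no link to the identifiers of the deposited table.

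RNA was sequenced as single reads of 50 bases from gonads of wild-type, Wolbachia-free virgin flies aged 6 to 10 days, with the attached ducts taken off. D. ananassae, stock 14024-0371.13 grown at 25 °C, had 2 testis and 2 ovary libraries, and D. pseudoobscura, stock 14011-0121.94 grown at 20 °C, had 2 testis and 3 ovary libraries. Growth temperature and species cannot be told apart in these groups. D. yakuba, the remaining species of the 13 libraries, was not analysed here.

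The files hold 1 fold change and 1 test per gene and no values for single libraries, whose depth is therefore unknown. Whether the folds are corrected for depth is not stated and was not tested. A gonad is a mixture of germline and somatic cells, and in such bulk RNA fewer cells of a type and less RNA per cell cannot be told apart. A negative log2 fold change is read as lower in testis than in ovary. The direction follows the order of tissues in the tables' titles and not a header, and it was checked on marker genes, which are therefore no independent evidence of it.

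Before a cell divides it copies its DNA once, in S phase. PCNA is a ring that slides along DNA and holds the polymerases on their template, and in Drosophila it is encoded by mus209. Dref encodes the DRE-binding factor, a zinc finger protein that, in D. melanogaster, binds promoters of many replication and growth genes, that of PCNA among them. In D. melanogaster plu, or plutonium, encodes a small ankyrin-repeat protein of the PNG kinase complex, which controls S phase at the start of embryogenesis and switches on translation of maternal mRNAs. In the ovary, nurse and follicle cells replicate their genomes repeatedly without dividing, and the egg is stocked with replication factors for the first embryonic cycles. In the testis, germ cells replicate their DNA up to the start of the spermatocyte stage and not in the later stages.

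All 3 genes were lower in testis than in ovary in D. ananassae, and Dref was also lower in testis in D. pseudoobscura. Testis expression of mus209 was 0.247% of that in ovary, that of Dref 4.32% and that of plu 5.63%, each converted from the log2 fold change of the authors' deposited table for D. ananassae. In D. pseudoobscura testis expression of Dref was 15.9% of that in ovary, from the authors' deposited table for that species. The 3 calls in D. ananassae stand beside 53.8% of all genes of that table called higher in ovary, and the call of Dref in D. pseudoobscura beside 44.1%. Among protein-coding genes given a symbol, from which the members were taken, the shares were 64.4% of 59 in D. ananassae and 49.3% of 213 in D. pseudoobscura. Genes called higher in testis made up 31.7% of the D. ananassae table and 29.6% of the D. pseudoobscura table. Calls towards ovary are common in both tables, so being called does not set the members apart, and the sizes of their folds are given against all genes. In the authors' deposited tables the log2 fold change of the median gene was -0.93 for D. ananassae and -0.85 for D. pseudoobscura. Relative to it, the log2 fold changes computed from the authors' deposited tables were -7.74 for mus209, -3.61 for Dref and -3.22 for plu in D. ananassae, and -1.81 for Dref in D. pseudoobscura.

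The standard errors and 95% intervals given here are approximations, each being the size of the log2 fold change over the square root of the authors' likelihood-ratio statistic. Among genes with a rescaled log2 average no lower than 6 and a log2 fold change between 0.5 and 1 in size, this error had a median of 0.26 in D. ananassae (350 genes, 5th to 95th percentile 0.26 to 0.26) and 0.61 in D. pseudoobscura (364 genes, 0.59 to 0.62), from the authors' deposited tables. It hardly varied between these genes, so their intervals carry an error common to the table and not the spread of a gene's own libraries. The members had larger folds and were not among these genes, so for them this was assumed and not shown. The authors' p-values rest on the same statistic. Their small size is therefore not taken as a measure of how closely the libraries agreed for a given gene.

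**Figure D1:**
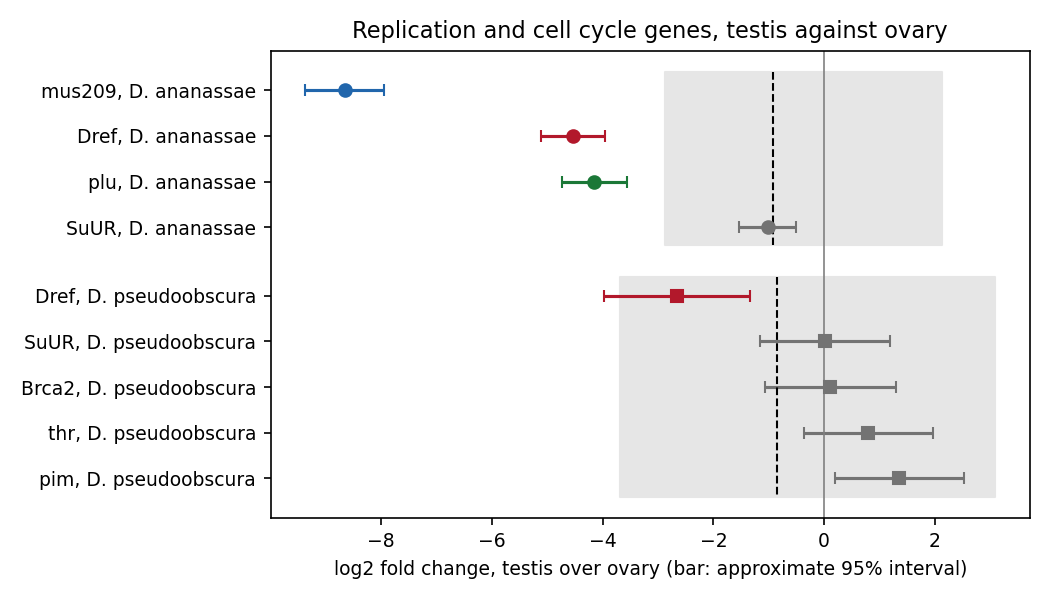
Log2 fold change of testis over ovary for the replication genes Dref, mus209 and plu (coloured) and for further replication and cell cycle genes (grey), with circles for D. ananassae and squares for D. pseudoobscura. Bars are approximate 95% intervals, the dashed line is the median gene of the table and the grey band the interquartile range of its genes, from -2.87 to 2.12 in D. ananassae and from -3.69 to 3.09 in D. pseudoobscura by the authors' deposited tables. The 3 members in D. ananassae lie left of the band, while Dref in D. pseudoobscura lies inside it.

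The sliding clamp gene mus209 had the most negative fold of the members. Its log2 fold change was -8.66 in the authors' deposited table, with a likelihood-ratio statistic of 569.0 and an approximate standard error of 0.36 (adjusted p = 1.37e-123, authors' edgeR test). Testis expression was thus 405-fold lower than in ovary, with an approximate 95% interval of 247 to 663-fold, derived from the authors' deposited table. The level in testis alone is not given, so how near it lay to the detection floor is not known. By fold, mus209 was rank 113 of 11576 genes from the ovary end, and among the 6226 genes called higher in ovary it belonged to the 1.81% with the most negative values. By the likelihood-ratio statistic it was rank 79 of the table. It was also the most ovary-biased of the 59 protein-coding genes that the D. ananassae table gives a symbol. Its average expression lay in the highest decile of the table (10 equal groups by rank), where 62.6% of genes were called higher in ovary and the median log2 fold change was -1.71 in the authors' deposited table. In that decile 28 of 1158 genes (2.42%), mus209 included, were at least as ovary-biased.

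The transcription factor gene Dref followed with a log2 fold change of -4.53 in the authors' deposited table for D. ananassae and an approximate standard error of 0.30 (adjusted p = 6.15e-51, authors' edgeR test). Expression in testis was 23.2-fold lower than in ovary, with an approximate 95% interval of 15.4 to 34.8-fold, from the authors' deposited table. Dref was rank 1221 by fold from the ovary end, which is 10.5% of the table. Among the 1158 genes in its decile of average expression, 56.3% were called higher in ovary and 8.29% were at least as ovary-biased as Dref.

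The embryonic S-phase gene plu had a log2 fold change of -4.15 in the authors' deposited table for D. ananassae, with an approximate standard error of 0.30 (adjusted p = 1.51e-42, authors' edgeR test). The testis level was 17.8-fold lower than that of ovary, with an approximate 95% interval of 11.8 to 26.7-fold, from the authors' deposited table. By fold plu was rank 1523, or 13.2% of the table from the ovary end. In its decile of average expression 55.8% of 1157 genes were called higher in ovary, and 10.0% were at least as ovary-biased.

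Within D. ananassae the fold of mus209 was more negative than those of the other members, and the folds of Dref and plu were close to each other. The log2 fold change of mus209 minus that of Dref was -4.13, with an approximate 95% interval of -5.05 to -3.21, from the authors' deposited table. That of mus209 minus that of plu was -4.51, with an approximate interval of -5.44 to -3.59, from the same authors' deposited table. For Dref minus plu the difference was -0.38, and its approximate interval of -1.22 to 0.45 included 0 in the authors' deposited table. These differences compare folds of different genes in the same libraries and say nothing of which gene had the higher level. Their intervals treat the folds as independent, although the folds come from the same libraries, and whether that holds was not tested.

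**Figure D2:**
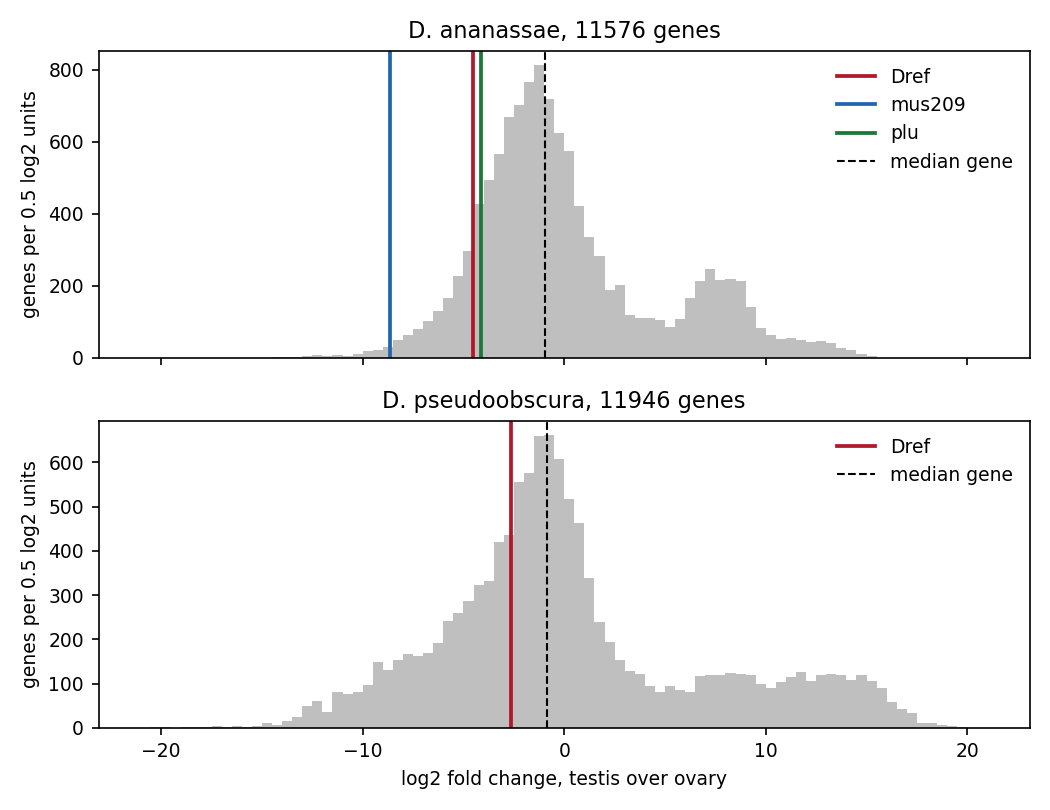
Number of genes by log2 fold change of testis over ovary, in bins of 0.5, for the authors' deposited tables of D. ananassae (upper panel) and D. pseudoobscura (lower panel). In D. ananassae mus209 at -8.66 stands in the far ovary tail and Dref and plu on its shoulder, and in D. pseudoobscura Dref at -2.65 stands nearer to the median gene at -0.85.

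Dref is the member that could be followed across species. In D. pseudoobscura its log2 fold change was -2.65 in the authors' deposited table, with an approximate standard error of 0.67 (adjusted p = 0.000137, authors' edgeR test). Expression in testis was 6.29-fold lower than in ovary, with an approximate 95% interval of 2.53 to 15.6-fold, from the authors' deposited table. The gene was rank 3843 of 11946 from the ovary end, or 32.2% of the table, and 72.5% of the genes called higher in ovary had a fold at least as negative. In its decile of average expression 42.0% of 1195 genes were called higher in ovary, and 21.3% were at least as ovary-biased. The call of Dref in D. pseudoobscura was lost under Bonferroni adjustment, where its p became 0.908 from the authors' edgeR test.

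The direction of Dref was thus shared by the species, with -4.53 in the authors' deposited table of D. ananassae and -2.65 in that of D. pseudoobscura. Each species was fitted in a table of its own, with a normalization that is not stated, so the difference between these folds was not tested. Both tables name 24 protein-coding symbols in common. Among them Dref was rank 9 from the ovary end in D. ananassae and rank 11 in D. pseudoobscura by the authors' deposited tables. Of the 24 symbols 15, Dref among them, were called higher in ovary in both species. These symbols lean to ovary as a set: 17 were called higher in ovary in D. ananassae and 16 in D. pseudoobscura. The shares over all genes were 53.8% and 44.1%. The median log2 fold changes of the 24 symbols in the authors' deposited tables were -3.41 and -2.33, so the shared call and the ranks do not set Dref apart.

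**Figure D3:**
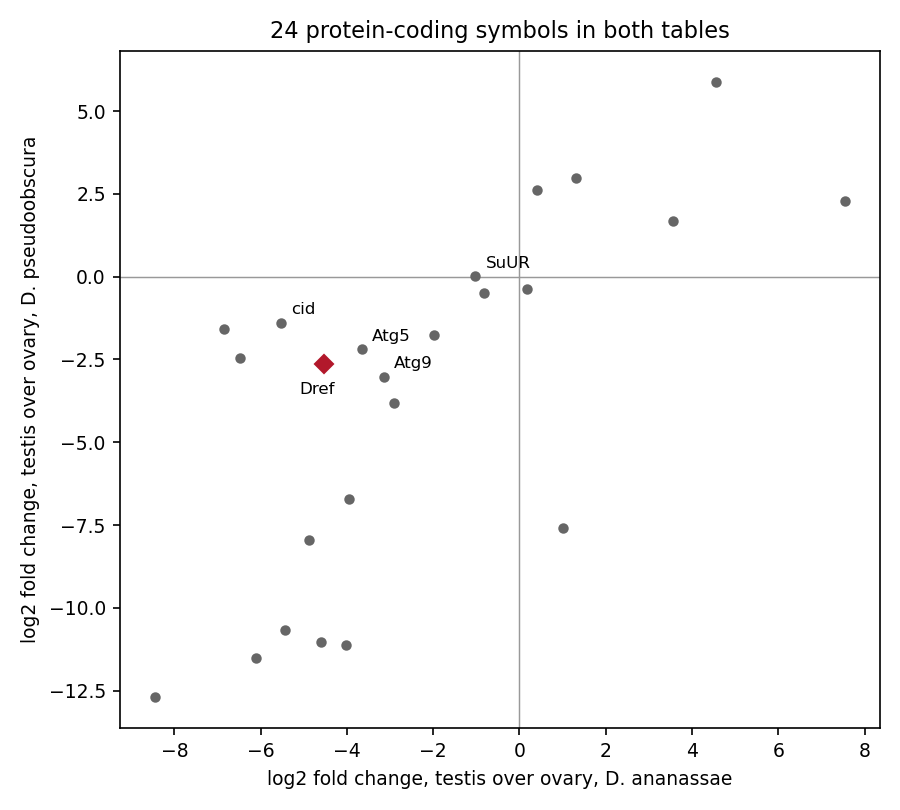
Log2 fold change of testis over ovary in D. ananassae (horizontal axis) and D. pseudoobscura (vertical axis) for the 24 protein-coding symbols in both of the authors' deposited tables, 1 point per gene. Dref (red diamond) lies in the lower left quadrant, at -4.53 and -2.65, with Atg5 and Atg9 as its nearest neighbours.

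The genes most like Dref over the folds of both species, by Euclidean distance on the log2 scale among the shared symbols, were Atg5, Atg9 and cid. The autophagy gene Atg5 stood at -3.66 (D. ananassae) and -2.19 (D. pseudoobscura), as the authors' deposited tables give them, a distance of 0.99. Atg9, likewise of autophagy, stood at -3.15 and -3.02 in the authors' deposited tables, a distance of 1.43. The gene of the centromeric histone, cid, stood at -5.53 and -1.39 in the authors' deposited tables, a distance of 1.61. Within single tables, where likeness is the difference in 1 fold change, many genes are about as near. The nearest named genes to mus209 were Mal-A5, of a maltase, at -8.45, the dosage compensation gene msl-1 at -6.86 and CBP at -6.70 in the authors' deposited table. Those nearest to Dref in D. ananassae were fw at -4.58, the thioredoxin gene Trx-2 at -4.59 and the kinase gene Dsor1 at -4.44 in the authors' deposited table. For plu they were the ribosomal protein gene RpS18 at -4.18 and the maltase genes Mal-A6 at -4.01 and Mal-B2 at -3.96 in the authors' deposited table. Nearest to Dref in D. pseudoobscura were STIP at -2.69, the gustatory receptor gene Gr10b at -2.57, which was not called (adjusted p = 0.228, authors' edgeR test), and ATPsyn-beta at -2.79 in the authors' deposited table. Between 118 and 332 genes of a table, most of them known by identifier only, lay within the distance of the third named neighbour of a member.

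Other replication genes could hardly be followed by name. A list of 106 D. melanogaster symbols for the clamp and its loader, transcription of replication genes, the PNG kinase complex, origin licensing, polymerases and fork proteins, cyclins, checkpoint and repair had 3 measured members in D. ananassae and 1 in D. pseudoobscura, and these were mus209, Dref and plu themselves. Their median log2 fold change in D. ananassae was -4.53, against -0.93 over all genes of the authors' deposited table. This median is the value of Dref itself and says nothing of other replication genes. Partners of plu in its kinase complex, png and gnu, and the subunits of the MCM helicase are not listed under those symbols. The tables do name 4 further genes of replication, repair and chromosome separation, which were added to the lists after the symbols in the tables had been seen.

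None of these 4 genes was called higher in ovary in D. pseudoobscura, where all of them are listed. Over all genes of that species 44.1% were called higher in ovary and 29.6% higher in testis. With 4 genes, added after the symbols had been seen, the count does not set them apart from that share. SuUR, whose protein slows replication of heterochromatin in polyploid cells of D. melanogaster, stood at 0.01 in the authors' deposited table (adjusted p = 0.983, authors' edgeR test). Brca2, which acts in repair by recombination, stood at 0.11 in the authors' deposited table (adjusted p = 0.874, authors' edgeR test). For thr, whose protein acts with separase in parting sister chromatids, the log2 fold change was 0.80 in the authors' deposited table (adjusted p = 0.217, authors' edgeR test). The securin gene pim was higher in testis, at 1.36 in the authors' deposited table (adjusted p = 0.0307, authors' edgeR test), a call that is lost under Bonferroni adjustment. In all 4 cases the approximate 95% interval overlaps or lies above 0, while that of Dref in the same authors' deposited table runs from -3.97 to -1.34. In D. ananassae, SuUR was called higher in ovary at -1.02 in the authors' deposited table (adjusted p = 0.000129, authors' edgeR test). This value lay close to that of the median gene of the species, and after centring it was -0.09, so that a minimum of 2-fold would end the call.

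**Figure D4:**
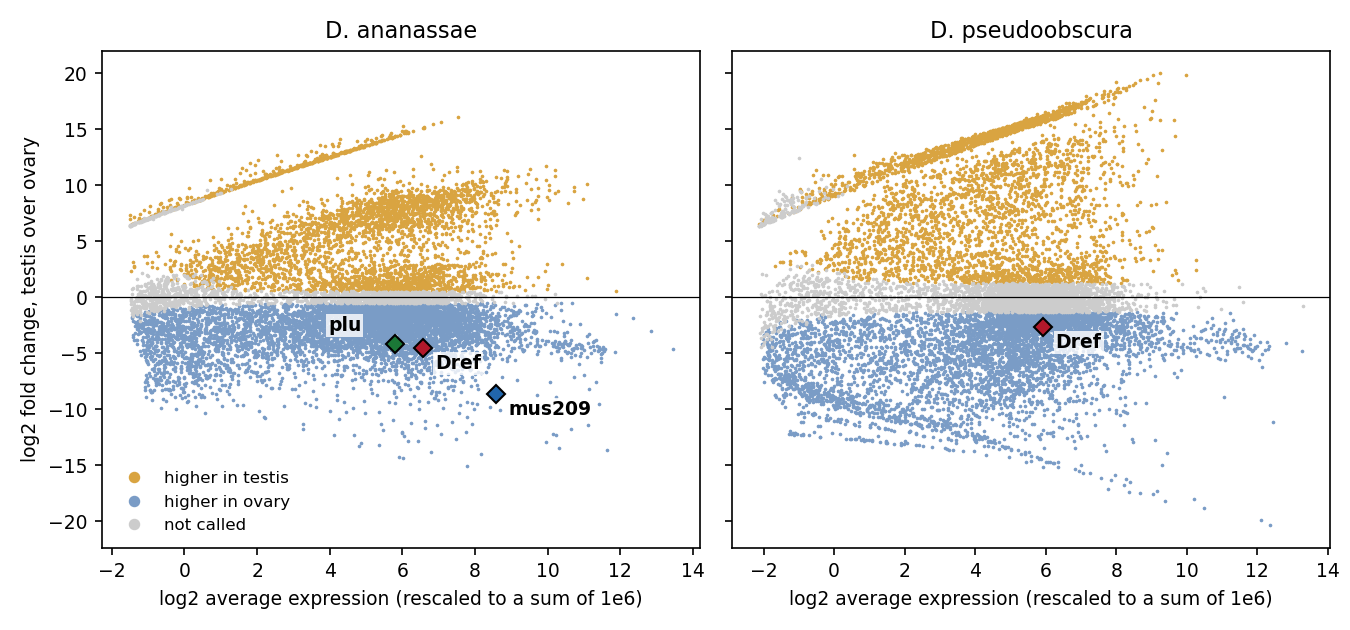
Log2 fold change of testis over ovary (vertical axis) against log2 average expression, set so that each table sums to 1000000 on the linear scale (horizontal axis), for every gene of the authors' deposited tables of D. ananassae (left) and D. pseudoobscura (right), coloured by the authors' call at an adjusted p under 0.05. Diamonds mark mus209, Dref and plu, all at averages between 5.79 and 8.59, away from the low averages where uncalled genes with large positive folds lie. The average pools both tissues, so it does not show how low the level in testis was.

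The rescaled log2 averages, computed from the authors' deposited tables, were 8.59 for mus209, 6.57 for Dref and 5.79 for plu in D. ananassae and 5.93 for Dref in D. pseudoobscura. These averages are not scaled by gene length and give no order of levels between genes. The error of Dref was set beside the median over genes of its decile of average expression with a log2 fold change of at least 1 in size. In D. pseudoobscura its error of 0.67 equalled that median, and in D. ananassae its error of 0.30 stood beside 0.28, from the authors' deposited tables. This approximate error grows with the size of the fold, so the match does not show how precisely Dref was measured.

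Markers of each tissue went with the labels. The direction of the folds had been checked on such markers, so this is no independent evidence of it. In D. ananassae the 2 measured genes of the testis germline list, TrxT at 4.56 and Pof at 7.70, were higher in testis. Pof encodes a chromosome-wide regulator and was listed with earlier results of these data known, so its place as a marker is weak. The other markers were also listed with those results known. The 3 measured ovary germline markers, hb, nos and rhi, were lower in testis, with folds from -6.48 to -2.25 in the authors' deposited table. In D. pseudoobscura TrxT at 5.89 and exu2 at 12.8 were higher in testis, and 5 ovary germline markers were lower in testis, from dhd at -17.3 to hb at -2.46 in the authors' deposited table. Markers of other tissues moved too in D. pseudoobscura. The 7 of 9 muscle genes that were measured were all lower in testis, from TpnCIb at -11.3 to Tm1 at -3.00, and Mal-A1, the 1 measured of 4 gut genes, stood at -3.97 in the authors' deposited table. The 5 of 6 accessory gland genes that were measured were all higher in testis, from 5.56 for Acp26Aa to 9.12 for Acp53C14a in the authors' deposited table. Their rescaled log2 averages were low, from -0.96 to -0.21, their approximate standard errors ran from 1.05 to 2.56, and the calls of Acp53C14b, Acp53C14c and Acp53Ea were lost under Bonferroni adjustment. So were those of hb and Tm1 in D. pseudoobscura. In D. ananassae no muscle, gut or accessory gland marker is listed under its symbol, and in neither species a fat body or follicle cell marker. Levels per tissue are not in the tables, so which markers are at 0 in a tissue is not known, and the part of other tissues in the fold of Dref was not tested.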

How the data were processed

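Per the submitters' processing notes, the authors' tools were edgeR, HTSeq 0.5.4p3 and Bowtie2 2.1.0, together with Cuffdiff 2.1.0 and Cufflinks 2.1.0. The sources used here do not state the genome build, the annotation, the count filter or the normalization. Libraries were made from polyadenylated RNA with random priming, per the labels' protocols.

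Per the file headers, the authors deposited for each gene a p-value, an adjusted p, a log2 fold change, a log2 average and the likelihood-ratio statistic, a score. Each p-value matched the chi-square tail of that score at 1 degree of freedom within 0.49%, and each adjusted p its Benjamini-Hochberg value over the table within 0.82%. Depth is unknown, and intervals on counts are not given. On the linear scale the averages headed logCPM summed to 6690000 times 1000000 in D. ananassae and 8090000 times 1000000 in D. pseudoobscura. The origin of this offset is unknown, and whether it bears on the folds was not tested. The deposited log2 averages were therefore rescaled within each table to a linear sum of 1000000. Genes were called at the authors' adjusted p under 0.05.

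From these values were computed approximate standard errors and 95% intervals, ranks, deciles of average expression and centred folds, with pandas 2.3.3, scipy 1.17.1 and numpy 2.4.6 in Python 3.11.15, and drawn with matplotlib 3.10.9. The error was tried on simulated counts of 2 against 2 libraries with a known spread between libraries, and the adjustments on simulated p-values. D. pseudoobscura had 2 testis and 3 ovary libraries, and the spread in the authors' fits is not known for either species. The simulation therefore does not show how well the intervals given here hold. The labels do not say that libraries came from separate flies, so the authors' p-values rest on a spread between libraries that may be technical. The approximate error was nearly the same for the well measured genes with small folds that were examined, and so not specific to a gene. The members were not among those genes. Alternatives were Bonferroni and Benjamini-Yekutieli adjustment, a minimum rescaled log2 average of 0, and centring with and without a minimum of 2-fold.

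The text names every member row, the genes of the fixed lists that a table names, with marker lists given by their extremes, and the 3 named genes nearest to each member in fold. The members and lists were chosen with earlier results of these data known.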

Additional observations from a re-analysis of the deposited data

How the results depend on the processing

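The calls of mus209, Dref and plu in D. ananassae held under Bonferroni and Benjamini-Yekutieli adjustment. They also held under adjustment over the 10472 genes with a rescaled log2 average of at least 0. Centring kept the direction of their folds. The centred folds were not tested anew and kept the authors' adjusted p, so centring could end a call only through the minimum of 2-fold. Centred on the median gene, the log2 fold changes from the authors' deposited table were -7.74 for mus209, -3.61 for Dref and -3.22 for plu, all past the minimum of 2-fold. In D. pseudoobscura the fold of Dref was -1.81 after centring on the median gene and -1.93 after centring on the median of genes above the minimum average. Its call held under Benjamini-Yekutieli adjustment (p = 0.00137 from the authors' edgeR test). The centred folds of Dref kept the authors' adjusted p and are no new test of the call, and -1.81 passed the minimum of 2-fold. Under Bonferroni adjustment Dref, at -2.65, was no longer called in D. pseudoobscura (p = 0.908 from the authors' edgeR test, unadjusted p = 7.6e-05), so 0 of the 1 measured member of the replication list was called there. The genes called higher in ovary in D. pseudoobscura numbered 3279 under Bonferroni adjustment, against 5269 as deposited. After centring with the minimum of 2-fold, D. ananassae had 3664 genes called higher in testis, the same number as deposited, and 4203 called higher in ovary, against 6226 as deposited. The testis share of all calls was therefore 46.6%, against 37.0% as deposited, through fewer ovary calls. Centring raised every fold by the same amount, which eases the minimum for testis calls and tightens it for ovary calls. The change in these counts follows from that shift and is no finding about the tissues.

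No paired analysis was possible because the tables hold no value per library, and for the same reason leaving out each replicate in turn was not run. Depth per library is unknown, and mus209 and plu have no value to recompute in D. pseudoobscura.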
